A study of Canis lupus familiaris with 6 samples.

Results

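Depletion of the phosphatase PRL1 by siRNA was followed in 3 lines of MDCK cells, an epithelial line from dog kidney, and the response that the lines shared is described. All 6 of the 6 libraries entered, as 3 pairs: PRL1 siRNA against control siRNA in wild-type cells, in clone 1 and in clone 2. Both clones are labelled PRL2-/- and PRL1+/-, each is a single clone, and each line gave 1 library per treatment, from RNA taken 18 h after the second transfection. The series title links a drop in cellular Mg2+ to cell death that depends on NF-κB.

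The PRL family are small membrane-associated phosphatases, with PTP4A1 as the gene of PRL1 and PTP4A2 as that of PRL2, and they bind magnesium transporters of the CNNM family. Magnesium is a cofactor of ATP and of many enzymes, and tubule epithelium of the kidney reabsorbs it from the filtrate. Several of the pathways below are transcriptional programmes with well-known target genes: the unfolded protein response to misfolded protein in the endoplasmic reticulum (ER), the integrated stress response run by ATF4 and CHOP, NF-κB, and the Hippo effectors YAP and TAZ.

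Levels are the FPKM that the authors deposited, in which fragment numbers are scaled for the length of the transcript and the size of the library. Differences are PRL1 siRNA minus control siRNA of the same line on the log2(FPKM + 1) scale, which understates changes of low genes. A gene was called when limma with the line as block gave an adjusted p under 0.05, and "rose" and "fell" are used of called genes alone. Each SE is the moderated SE of that fit, drawn toward the spread typical of genes at a like level. In genes uneven between lines it can be smaller than the SE of the 3 differences alone. The control libraries of the 3 lines are distinct, so no pair shares a sample with another. Libraries held 22961 to 23964 genes above 0. The absolute depth is unknown, but relative depth was estimated from low values. Each knockdown library came out shallower than its own control, at an estimated 0.861 of it in wild type, 0.899 in clone 1 and 0.947 in clone 2, and the part of this in the results was not tested. The estimate rests on the 24.4% to 27.3% of low genes whose ratio to the wild-type control fitted a ratio of small whole numbers at the best offset, against 1.95% to 2.098% at the median offset. The knockdown libraries of the clones held more genes above 0 than their controls, 23058 against 22961 and 23964 against 23702. No label says whether the libraries of a line were separate cultures, and p-values therefore cover only the spread among these samples.

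The targeted transcript fell in every line. PTP4A1 stood at 63.5 FPKM under control siRNA and 33.1 under PRL1 siRNA in wild type, at 61.7 and 37.8 in clone 1, and at 69.9 and 37.8 in clone 2. All 3 knockdown libraries lay below all 3 controls, and 52.1%, 61.2% and 54.1% of the transcript remained in the 3 lines. The mean log2 difference was -0.83 ± 0.05 (moderated SE, n = 3 lines, limma adjusted p = 0.00127). An exact permutation over swaps of treatment within line gave a two-sided p = 0.25, the smallest that 3 pairs allow. PTP4A2, the gene of PRL2, went from 72.7 to 59.0 FPKM in wild type, 80.4 to 69.1 in clone 1 and 56.7 to 48.3 in clone 2, so transcript was present in both clones labelled PRL2-/-. Its difference over the lines was -0.25 ± 0.04 log2 units (adjusted p = 0.00572). PTP4A1 under control siRNA was likewise near the wild-type level in the clones labelled PRL1+/-, and a transcript level does not show how an allele was disrupted, so these values do not check the genotypes. PTP4A3, the gene of PRL3, reached at most 0.49 FPKM.

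The response reached a large share of the transcriptome, mostly at small size. Of 12125 genes tested, 4762 (39.3%) were called, 2130 higher (17.6%) and 2632 lower (21.7%), and the median size of a called gene was 0.27 log2 units. Scaled to a common upper quartile, the calls split into 2635 higher and 2154 lower, a share of 55.0% higher against 44.7% in the main fit, with a shift of the median by 0.03 log2 units, so the balance of small rises and falls depends on scaling. The count of calls also depends on the libraries: it was 1709 without the pair of clone 1 and 2421 without the pair of clone 2, and 416 without the block on line. Calls were more frequent among abundant genes, with 25.6% of genes at 1 to 5 FPKM and 49.3% of those at 100 FPKM or more.

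The 3 lines moved the same way at most genes. Differences had the same sign in all 3 lines for 8178 genes (67.4%), 3835 higher and 4343 lower. Of the called genes 4759 had this agreement, a count the test itself favours. Across genes, Pearson's r between the differences was 0.53 for wild type and clone 1, 0.57 for wild type and clone 2 and 0.55 for clone 1 and clone 2, with Spearman's rho of 0.73, 0.70 and 0.79, given as descriptions because genes are not independent replicates. The median size of called genes was 0.27 in each line, and the largest of the 3 differences was in wild type for 1771 called genes, in clone 1 for 1450 and in clone 2 for 1541.

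**Figure D1:**
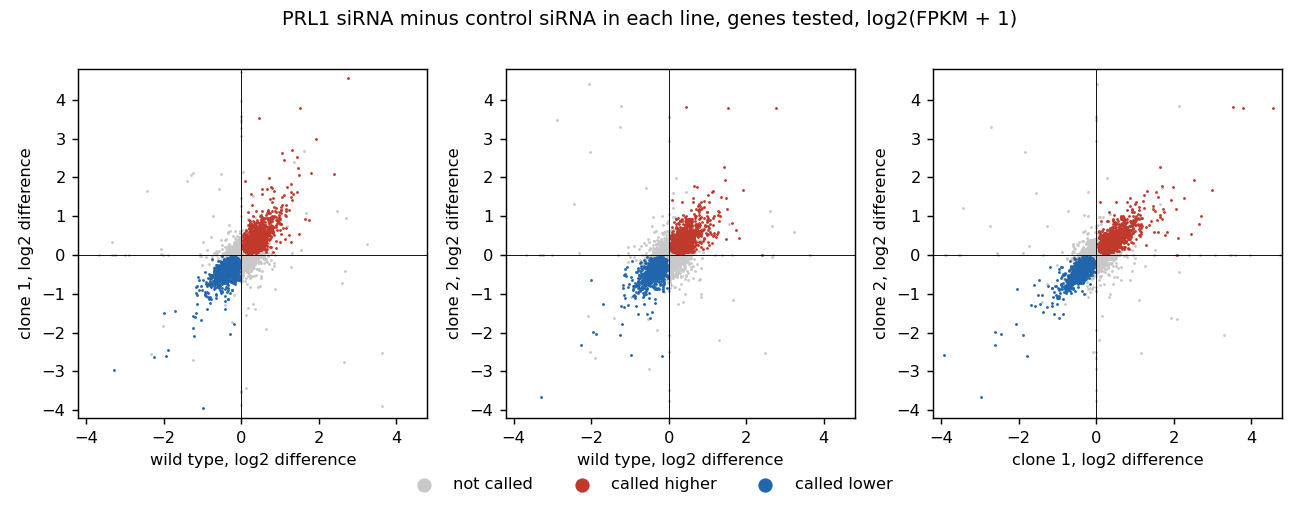
Log2 differences (PRL1 siRNA minus control siRNA, log2(FPKM + 1)) of each gene tested in one line against another, with called genes in red (higher) and blue (lower). Most called genes lie near the diagonal in the lower left and upper right quadrants, and 10 genes fall outside the axes.

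A small core changed strongly in every line. A change of at least 1.5-fold in the same direction in all 3 lines was found for 98 higher genes (0.808% of those tested) and 77 lower genes (0.635%). All 175 were called, an outcome that a threshold met in every line favours. At 2-fold the counts were 13 higher (0.107%) and 12 lower (0.099%). Of the 175 genes, 145 are protein coding and 18 are long non-coding RNAs by RefSeq. The core held 10 pairs of genes that are next to each other in RefSeq's gene order, each moving in the same direction, among them CCL7 with CCL2, GBP5 with GBP1, DLA-DMB with DLA-DMA, and the run of DLA-DRA, HLA-DRB1, DLA-DQA1 and DLA-DQB1. Fragments shared between near-identical or overlapping genes of such clusters cannot be told apart in these files.

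Among named genes, ranked by their smallest difference over the lines, the top 15 rises were in MMP13, PLAT, TXNIP, CCL2, CCL7, DLA-DQB1, DUSP2, DLA-DQA1, NFKBIA, VMO1, MMP9, SEMA4B, EHD2, TNFAIP3 and ALAS1. The 14 top falls reported were in HERPUD1, DDIT3, CHAC1, HSPA5, CCN1, CAR1, FGF21, WWTR1, F3, TIMP3, FAR2, SLC7A5, LIFR and UGCG. All 29 were called with each pair of libraries left out in turn. Ranking by the smallest difference over the same lines favours this outcome. In 23 of them the knockdown libraries did not overlap the controls; in MMP13, CCL2, DLA-DQB1, DLA-DQA1, CAR1 and F3 the lines differed so much in level that they did. Over all genes tested, all 3 knockdown libraries lay above all controls for 1532 genes (12.6%) and below them for 1970 (16.2%).

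**Figure D2:**
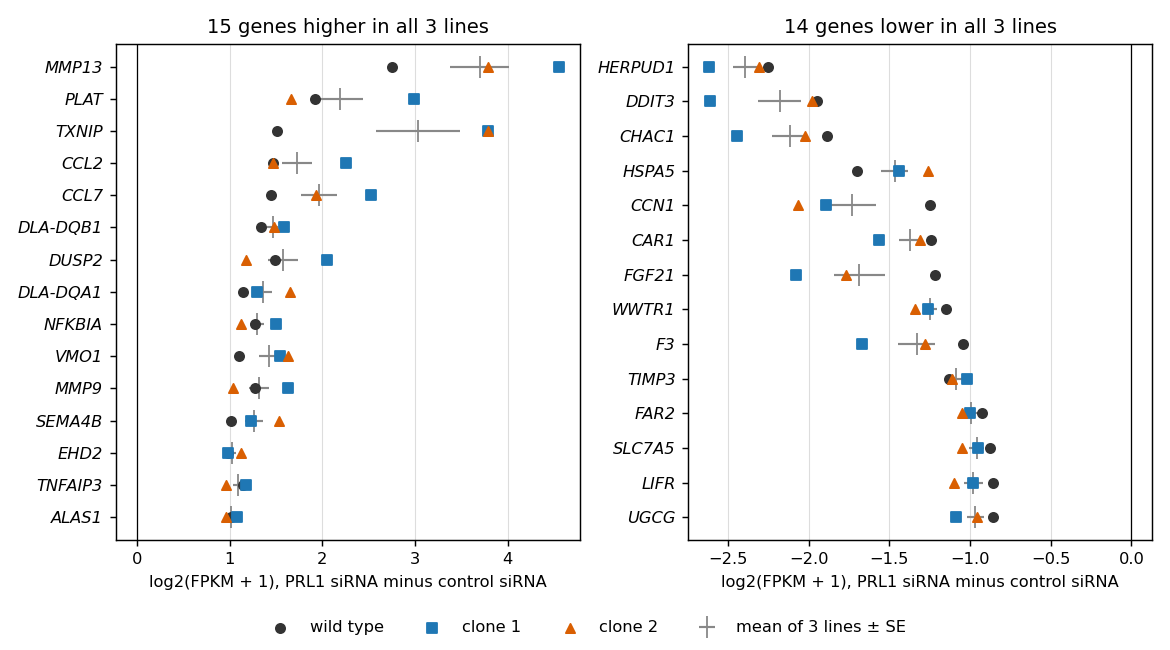
Log2 differences of 29 genes with the largest changes shared by the 3 lines, as points for wild type, clone 1 and clone 2. The mean of the 3 lines and its moderated SE are in grey. TXNIP stands out with 1.51 in wild type against 3.79 in both clones, while ALAS1 spans 0.96 to 1.08.

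Most genes of the ER stress response fell, among them its central chaperone. HSPA5, which encodes the ER chaperone BiP, stood at 723, 540 and 361 FPKM in the controls of wild type, clone 1 and clone 2 and at 222, 198 and 150 after knockdown. HERPUD1, which acts in the degradation of ER proteins, went from 148 to 30.3 FPKM in the wild-type pair, 119 to 18.6 in the clone 1 pair and 73.0 to 13.9 in the clone 2 pair. The highest knockdown library of each gene lay below the lowest control, and wild type was highest under either siRNA. The log2 differences were -1.47 ± 0.08 for HSPA5 (SE, n = 3 lines, adjusted p = 0.00127) and -2.39 ± 0.08 for HERPUD1 (adjusted p = 0.0009). Of 33 tested genes of the unfolded protein response, 21 fell (63.6%) and 2 rose (6.06%), against 21.7% and 17.6% over all genes tested. The median was -0.30 against -0.01 for all genes tested, with medians of -0.45, -0.26 and -0.23 in wild type, clone 1 and clone 2. The falls took in chaperones and co-chaperones of the ER: CRELD2 by 0.89, DNAJC3 by 0.79, SDF2L1 by 0.73, HSP90B1 by 0.55 and CALR, calreticulin, by 0.42 log2 units. The transcription factors of the response fell as well, ATF6 by 0.44 ± 0.04 (adjusted p = 0.00198) and XBP1 by 0.34 ± 0.05 (adjusted p = 0.00557), XBP1 being measured as total transcript and not as its spliced form. WFS1, the ER membrane protein wolframin, moved the other way and rose by 0.67 ± 0.07 (adjusted p = 0.00234). Without the pair of clone 1, 16 of the 33 were called lower.

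Most tested genes of the integrated stress response fell too. DDIT3, which encodes CHOP, stood at 54.3, 38.8 and 23.1 FPKM in the controls of wild type, clone 1 and clone 2 and at 13.3, 5.52 and 5.10 after knockdown. CHAC1, a CHOP target that degrades glutathione, went from 20.6, 17.5 and 12.2 to 4.85, 2.40 and 2.24 FPKM. FGF21, a secreted hormone of stressed cells, went from 10.6, 8.85 and 6.82 to 4.00, 1.33 and 1.29 FPKM. In all 3 genes the treatments did not overlap, and the log2 differences were -2.18 ± 0.13, -2.12 ± 0.11 and -1.69 ± 0.16 (adjusted p = 0.00127, 0.00107 and 0.00198). ATF4 itself, the factor at the centre of the pathway, went from 438 to 323 FPKM in the wild-type pair, 471 to 298 in the clone 1 pair and 384 to 219 in the clone 2 pair, a fall of 0.63 ± 0.07 log2 units (adjusted p = 0.00277). TRIB3, a pseudokinase induced by CHOP, fell by 0.62 ± 0.08 (adjusted p = 0.00375) and both eIF2α phosphatase subunits fell, PPP1R15B by 0.70 and PPP1R15A by 0.64. In all, 15 of 25 tested genes fell (60%) and 3 rose (12%), against 21.7% and 17.6% over all genes tested. The median was -0.29, and without the pair of clone 1, 10 were called lower. The genes that rose were NUPR1, a stress-induced chromatin protein, at 0.51 ± 0.05 (adjusted p = 0.00234), ATF5 at 0.40 and the kinase EIF2AK4. ATF3 had a difference of -0.04 ± 0.06 and was not called (adjusted p = 0.65).

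Amino acid genes that ATF4 is known to drive were lower as well. SLC7A5, the large neutral amino acid transporter LAT1, went from 70.8 to 38.2 FPKM in the wild-type pair, 92.7 to 47.4 in the clone 1 pair and 85.9 to 41.0 in the clone 2 pair, and its heavy chain SLC3A2 fell by 0.65 ± 0.04 log2 units (adjusted p = 0.00127). Knockdown and control values of SLC7A5 did not overlap, and its difference was -0.96 ± 0.04 (adjusted p = 0.00105). Of 18 amino acid transporters tested, 12 fell (66.7%) and 2 rose (11.1%), against 21.7% and 17.6% over all genes tested. Their median was -0.35, and the falls included SLC7A1, a transporter of cationic amino acids, by 0.65. SLC43A2 rose by 0.75 ± 0.10 (adjusted p = 0.00419), from levels of 0.725 to 1.56 FPKM in the controls. Of 22 cytosolic tRNA synthetases tested, 15 fell (68.2%) and 0 rose, with a median of -0.17. CARS1 at -0.51 and YARS1 at -0.48 led these falls, and the count was 5 without the pair of clone 1 and 8 without that of clone 2. Of 20 one-carbon, serine and proline genes, 10 fell (50%) and 0 rose (6 fell without the pair of clone 1). MTHFD2, the mitochondrial folate enzyme, had the largest of these falls at -1.003 ± 0.07 (adjusted p = 0.00127), and ASNS, asparagine synthetase, fell by 0.51 ± 0.04 (adjusted p = 0.00147).

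**Figure D3:**
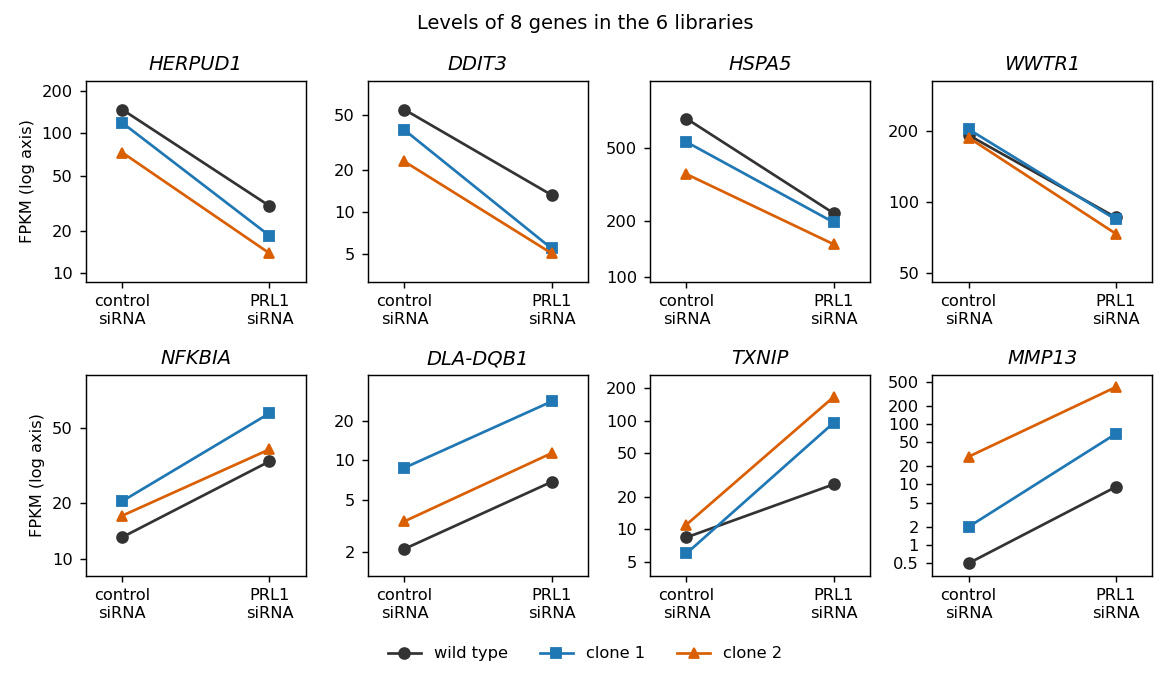
FPKM (log axis) of 8 genes in the 6 libraries, with a line joining control siRNA to PRL1 siRNA within wild type, clone 1 and clone 2. HERPUD1, DDIT3, HSPA5 and WWTR1 go down and NFKBIA, DLA-DQB1, TXNIP and MMP13 go up in every line, and the lines keep different levels of MMP13 and DLA-DQB1.

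Most NF-κB targets went the other way, with the feedback inhibitors of the pathway among the clearest rises. NFKBIA, which encodes the inhibitor IκBα, went from 13.1 to 33.1 FPKM in the wild-type pair, 20.4 to 59.6 in the clone 1 pair and 17.0 to 38.3 in the clone 2 pair. TNFAIP3, the ubiquitin-editing inhibitor A20, went from 3.58, 5.06 and 5.15 to 9.13, 12.7 and 10.97 FPKM. Neither gene overlapped between treatments, and the differences were 1.30 ± 0.07 (adjusted p = 0.00127) and 1.09 ± 0.06 (adjusted p = 0.0012). RELB and NFKB2, subunits of the non-canonical pathway, rose by 0.80 ± 0.08 (adjusted p = 0.00209) and 0.67 ± 0.05 (adjusted p = 0.00156), and TNFAIP2 by 0.86 ± 0.05 (adjusted p = 0.00127). Of 31 tested targets, 19 rose (61.3%) and 4 fell (12.9%), with a median of 0.32 and line medians of 0.37, 0.37 and 0.29. The 4 that fell were GADD45B (-0.77 ± 0.08, adjusted p = 0.00232), PLAU, BIRC2 and BCL2L1. Of 30 tested genes of the NF-κB pathway itself, 7 rose (23.3%) and 4 fell (13.3%), near the 17.6% and 21.7% over all genes tested, with a median of 0.00 that turned from just below to just above 0 with upper-quartile scaling. IKBKB, the kinase that phosphorylates IκBα, rose by 0.48 ± 0.04 (adjusted p = 0.00163), RIPK1, a kinase of death receptor signalling, fell by 0.51 ± 0.04 (adjusted p = 0.00162), and RELA, the p65 subunit, had a difference of -0.01 ± 0.05 and was not called (adjusted p = 0.892). Without the pair of clone 1 the pathway had 2 calls higher, and the targets 14.

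Several secreted cytokines rose, from levels that differed between the lines. CCL2, a monocyte chemoattractant, went from 14.8 to 42.6 FPKM in the wild-type pair, 53.3 to 258 in the clone 1 pair and 62.6 to 175 in the clone 2 pair. Its neighbour CCL7 went from 1.02, 1.34 and 3.00 to 4.49, 12.5 and 14.2 FPKM. The wild-type knockdown library lay below the clones' controls for CCL2, so that only the comparison within line separated the treatments, and the differences were 1.73 ± 0.16 for CCL2 (adjusted p = 0.00194) and 1.97 ± 0.19 for CCL7 (adjusted p = 0.00215). CSF1 and IL34, both ligands of the macrophage growth factor receptor, rose by 1.05 ± 0.16 (adjusted p = 0.00696) and 1.16 ± 0.14 (adjusted p = 0.00321), CCL20 by 1.23 ± 0.22 (adjusted p = 0.00986) and CXCL16 by 0.73 ± 0.04 (adjusted p = 0.00127). IL6 went from 0.248 to 0.972 FPKM in the wild-type pair, 0.0939 to 2.55 in the clone 1 pair and 0.825 to 5.27 in the clone 2 pair (1.38 ± 0.23, adjusted p = 0.00817; 0.0574 without the pair of clone 1). CCL5 was uneven between lines, with 0.0713 to 0.467 FPKM in wild type, 0.0445 to 11.1 in clone 1 and 0.643 to 22.1 in clone 2 (2.60 ± 0.65, adjusted p = 0.0267; 0.14 and 0.105 without the pairs of clone 1 and clone 2). Of 34 genes listed as cytokines and chemokines, 19 were tested, with a median of 0.43. Among these 11 rose (57.9%) and 2 fell (10.5%), against 17.6% and 21.7% over all genes tested. Without the pair of clone 1, 7 were called higher. The falls were EDN1, endothelin-1 (-1.14 ± 0.13, adjusted p = 0.00316), and VEGFA, the vascular growth factor (-0.50 ± 0.04, adjusted p = 0.00165). TNF did not exceed 0.0698 FPKM and IL1B did not exceed 0.00897 FPKM in any library.

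Most tested antigen presentation genes rose. DLA-DQB1, a chain of the MHC class II molecule DQ, went from 2.09 to 6.82 FPKM in the wild-type pair, 8.75 to 28.2 in the clone 1 pair and 3.40 to 11.3 in the clone 2 pair. Clone 1 was highest under either siRNA, its control lay above the wild-type knockdown library, and the size of the rise was similar in each line (1.34, 1.58 and 1.48; mean 1.47 ± 0.06, adjusted p = 0.0009). DLA-DQA1 rose by 1.36 ± 0.10 (adjusted p = 0.00139), DLA-DMA and DLA-DMB, which help load peptide, by 1.00 and 0.98, DLA-DRA by 0.85 and the invariant chain CD74 by 0.42. HLA-DRB1, picked after its values were seen, rose by 0.95 ± 0.07 (adjusted p = 0.00156). CIITA, the master regulator of class II transcription, went from 1.56, 2.90 and 2.14 to 2.73, 7.50 and 4.35 FPKM, a rise of 0.81 ± 0.11 (adjusted p = 0.00514). Of 10 tested class II genes 8 rose (80%) and 0 fell, against 17.6% and 21.7% over all genes tested. The median was 0.83, with line medians of 0.62, 0.86 and 0.88. Of 14 tested class I genes 11 rose (78.6%) and 0 fell, with a median of 0.28. Among the rises were DLA-64 by 0.53, the immunoproteasome subunit PSMB9 by 0.57 and the peptidase ERAP2 by 0.69. Without the pairs of clone 1 and clone 2 the class I counts were 4 and 5. Defining leukocyte markers were at or near 0 beside these results: PTPRC was at 0 in every library, 13 of 20 leukocyte markers never exceeded 0.1 FPKM, 2 were tested and not called, and the summed level of the list was 9.08 to 9.71 FPKM in the controls and 8.53 to 10.2 after knockdown. In bulk RNA, a shift in the number of cells with a transcript and a shift in transcript per cell cannot be told apart.

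Genes on the interferon response list mostly fell or were not called. RSAD2, the antiviral protein viperin, went from 7.92 to 3.18 FPKM in the wild-type pair, 5.99 to 3.44 in the clone 1 pair and 5.14 to 3.23 in the clone 2 pair, without overlap between treatments (-0.76 ± 0.11, adjusted p = 0.0058). CMPK2, a mitochondrial nucleotide kinase, and IFI44 fell by 0.84 and 0.80, and the transcription factor IRF7 by 0.66 ± 0.07 (adjusted p = 0.00225). Of 27 tested genes 13 fell (48.1%) and 3 rose (11.1%), against 21.7% and 17.6% over all genes tested. A further 9 listed genes were under the level tested. These moved both ways in clone 2, IFI6 from 0.349 to 2.78 FPKM and IFIT3 from 0.273 to 0.151. Line medians of the tested genes were graded, at -0.55 in wild type, -0.26 in clone 1 and -0.04 in clone 2, an order that was not tested. ISG15 shows this spread, with differences of -0.70, -0.31 and -0.01 and no call (adjusted p = 0.0797). MX1 fell by 0.51 ± 0.14 (adjusted p = 0.0387), a call lost without the pair of wild type (0.0615) or of clone 1 (0.132). IRF1, a factor that NF-κB also induces, rose by 0.50 ± 0.10 (adjusted p = 0.0161), and IFI35 rose by 0.40. The interferon-induced GTPases GBP1 and GBP5, which are not on the list and were picked after their values were seen, rose by 1.23 ± 0.17 (adjusted p = 0.0051) and 1.16 ± 0.16 (adjusted p = 0.00488). Without the pair of clone 1, 7 genes were called lower.

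The matrix metalloproteinases MMP13 and MMP9 and the plasminogen activator gene PLAT rose, and the metalloproteinase inhibitor TIMP3 fell. MMP13, a collagenase, went from 0.492 to 9.05 FPKM in the wild-type pair, 1.98 to 68.7 in the clone 1 pair and 28.8 to 410 in the clone 2 pair, a rise of 18.4-fold, 34.8-fold and 14.2-fold. The control of clone 2 lay above the wild-type knockdown library, and the difference within line was 3.70 ± 0.31 (adjusted p = 0.00169, and 0.239 without the block). MMP9, a gelatinase, went from 9.65, 11.98 and 17.3 to 24.8, 39.3 and 36.7 FPKM (1.32 ± 0.11, adjusted p = 0.00165). PLAT, which encodes tissue plasminogen activator, went from 2.45, 1.54 and 5.09 to 12.1, 19.1 and 18.4 FPKM (2.19 ± 0.25, adjusted p = 0.00282). TIMP3, an inhibitor of metalloproteinases, fell from 32.2, 58.5 and 65.9 to 14.2, 28.3 and 29.9 FPKM (-1.09 ± 0.04, adjusted p = 0.0009). F3, tissue factor, fell by 1.33 ± 0.11 (adjusted p = 0.00172). PLAU, which encodes urokinase, fell as well, so the 2 plasminogen activators moved in opposite directions. Of 17 tested genes of this list 8 rose (47.1%) and 4 fell (23.5%), against 17.6% and 21.7% over all genes tested. Without the pair of clone 2 the calls higher were 5.

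The Hippo effector TAZ and genes that YAP and TAZ are known to drive fell. WWTR1, which encodes TAZ, was at 193, 204 and 188 FPKM in the 3 controls and at 86.4, 84.7 and 73.7 after knockdown, a difference of -1.25 ± 0.05 (adjusted p = 0.0009). The lines were close to each other within each treatment, and the fall was also called without the block (adjusted p = 0.0149). YAP1 did not show this fall, with 43.2, 39.1 and 40.7 FPKM in the controls and 44.3, 35.4 and 35.1 after knockdown (-0.10 ± 0.06, adjusted p = 0.183). CCN1, a secreted matrix protein and target of both, went from 99.8, 196 and 167 to 41.4, 52.1 and 39.3 FPKM (-1.73 ± 0.15, adjusted p = 0.00175), and AMOTL2, a target that also restrains YAP, fell by 1.09 ± 0.09 (adjusted p = 0.00165). ANKRD1 was at or below 0.199 FPKM in wild type, and dropped from 2.48 to 0.0118 FPKM in the clone 1 pair and 11.1 to 0.977 in the clone 2 pair (-1.53 ± 0.43, adjusted p = 0.0391; 0.167 and 0.125 without the pairs of clone 1 and clone 2). CCN2 was low and not called (-0.26 ± 0.09, adjusted p = 0.0693). Of 22 tested targets, 17 fell (77.3%) and 0 rose, against 21.7% and 17.6% over all genes tested. The median was -0.30, with line medians of -0.21, -0.28 and -0.43. The count lower was 8 without the pair of clone 1 and 10 without that of clone 2. The list shares F3 with the proteolysis list, as the NF-κB targets share MMP9 and PLAU with it and IRF1 with the interferon list. Of 24 tested pathway genes 10 fell (41.7%) and 4 rose (16.7%), the share of rises near that over all genes tested. Their median was -0.06, and -0.02 with upper-quartile scaling. The falls included the kinase LATS2 by 0.41 and its partner MOB1B by 0.47, and without the pair of clone 1 the calls lower were 5.

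TXNIP, an alpha-arrestin that binds thioredoxin and limits glucose uptake, went from 8.43 to 25.9 FPKM in the wild-type pair, 5.995 to 95.6 in the clone 1 pair and 11.05 to 165 in the clone 2 pair. These were rises of 3.08-fold, 15.9-fold and 14.97-fold, and all knockdown libraries lay above all controls (3.03 ± 0.45 log2 units, adjusted p = 0.00616). ARRDC3, another alpha-arrestin, rose by 0.70 ± 0.09 (adjusted p = 0.00419), and MXD1, a MAX partner that opposes MYC, by 0.55 ± 0.07 (adjusted p = 0.0047). Of 11 tested alpha-arrestins and glucose-responsive factors, a list that holds MXD1, 6 rose (54.5%) and 0 fell. The shares over all genes tested were 17.6% and 21.7%, and 3 and 4 members were called without the pairs of clone 1 and clone 2. ARRDC4 was under the level tested, at 0.240, 0.279 and 0.459 FPKM in the controls and 0.2504, 1.38 and 2.14 after knockdown.

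The MAP kinase phosphatases DUSP2 and DUSP4 rose, and early response factors changed in both directions. DUSP2, a nuclear phosphatase of MAP kinases, went from 2.63, 2.52 and 2.04 to 9.18, 13.6 and 5.87 FPKM (1.57 ± 0.16, adjusted p = 0.00232), and DUSP4 rose by 0.55 ± 0.05 (adjusted p = 0.00165). ERRFI1, an inhibitor of the EGF receptor, fell by 0.52 ± 0.04 (adjusted p = 0.00163), and the receptor ERBB3 rose by 0.49 ± 0.04 (adjusted p = 0.00165). Of 24 genes of ERK feedback and EGF ligands 10 rose (41.7%) and 4 fell (16.7%), against 17.6% and 21.7% over all genes tested. FOS rose by 0.62 ± 0.05 (adjusted p = 0.00169) and EGR1 by 0.45 ± 0.06 (adjusted p = 0.00443), while MYC fell by 0.54 ± 0.04 (adjusted p = 0.00147). Of 20 immediate early factors 5 rose and 5 fell (25% each, against 17.6% and 21.7% over all genes tested), and 3 and 2 were called in these directions without the pair of clone 1.

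Most proliferation genes tested fell, by small amounts at the median. Of 42 tested G2 and mitotic genes, 36 were called lower (85.7%) and 0 higher, against 21.7% and 17.6% over all genes tested. The median was -0.27, with line medians of -0.29, -0.21 and -0.29. ANLN, anillin of the cleavage furrow, was at 78.2, 109 and 82.8 FPKM in the controls and 54.7, 77.5 and 59.1 after knockdown (-0.49 ± 0.03, adjusted p = 0.00129). Those treatments did not overlap; the proliferation antigen MKI67 fell by 0.37 ± 0.04 (adjusted p = 0.00235) and cyclin B1, CCNB1, by 0.34 ± 0.04 (adjusted p = 0.00406). Of 41 S phase genes 29 fell (70.7%) and 0 rose, with a median of -0.21 and line medians of -0.23, -0.15 and -0.31. The replication licensing factor CDC6 fell most, from 46.8, 44.2 and 37.3 to 22.3, 24.9 and 20.7 FPKM (-0.89 ± 0.06, adjusted p = 0.00127). The counts without the pair of clone 1 were 21 for mitosis and 14 for S phase, and without the pair of clone 2 they were 21 and 10.

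Most ribosome biogenesis genes fell too. Of 48 tested ribosome biogenesis genes 36 fell (75%) and 0 rose, against 21.7% and 17.6% over all genes tested. The median was -0.23, with line medians of -0.24, -0.20 and -0.24. NOC4L, a nucleolar assembly factor, fell by 0.49 ± 0.04 (adjusted p = 0.00162), DDX21, a nucleolar helicase, by 0.53 ± 0.05 (adjusted p = 0.00174) and nucleolin, NCL, by 0.41 ± 0.05 (adjusted p = 0.00279). Of 75 cytosolic ribosomal proteins 31 fell (41.3%) and 0 rose, by a median of -0.10, but with upper-quartile scaling 25 fell and 4 rose. RPL3, the most changed of them by the naming rule, went from 706, 891 and 857 to 580, 724 and 671 FPKM (-0.31 ± 0.03, adjusted p = 0.00248). Without the pairs of clone 1 and clone 2, the calls lower were 17 and 21 for biogenesis and 2 and 7 for ribosomal proteins. The 70 mitochondrial ribosomal proteins were mixed, with 8 higher and 17 lower, shares near those of all genes.

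Of the lysosome genes tested, more rose than fell, by small amounts at the median, and 19 were not called. CTSD, cathepsin D, was at 309, 298 and 233 FPKM in the controls and 430, 403 and 319 after knockdown, and CTSH and CTSB rose by 0.47 ± 0.04 and 0.37 ± 0.03 (adjusted p = 0.00172 and 0.00191). Of 46 lysosome genes 22 rose (47.8%) and 5 fell (10.9%), against 17.6% and 21.7% over all genes tested. The median was 0.12, and 8 and 9 were called higher without the pairs of clone 1 and clone 2. SCARB2, which carries glucocerebrosidase to lysosomes, was among the falls at -0.54 ± 0.06 (adjusted p = 0.00273). Of 40 autophagy and mTORC1 genes 15 rose (37.5%) and 4 fell (10%), and 5 and 7 were called higher without the pairs of clone 1 and clone 2. The rises included RRAGA, a RAG GTPase of the lysosome surface, by 0.47 ± 0.04 (adjusted p = 0.00151). The autophagy kinase ULK1 rose by 0.39 ± 0.04 (adjusted p = 0.00235). Of 37 complex I genes 11 rose (29.7%) and 1 fell (2.7%), and without the pair of clone 1, 1 was called higher. With upper-quartile scaling 21 rose and 0 fell. Over all genes tested, that scaling took the calls higher from 2130 to 2635 and the calls lower from 2632 to 2154.

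Within the BCL2 family, the inhibitor BCL2 fell and the promoting members BCL2L11 and BMF rose, while BID, also a promoting member, fell. BCL2, the inhibitor of mitochondrial apoptosis, went from 7.36, 8.58 and 5.76 to 4.10, 4.20 and 2.69 FPKM, and BCL2L11, the promoting protein BIM, from 4.20, 3.31 and 3.25 to 7.31, 6.99 and 6.74 FPKM. Neither overlapped between treatments, and the differences were -0.82 ± 0.06 (adjusted p = 0.00138) and 0.81 ± 0.06 (adjusted p = 0.00156). BMF, a further promoting member, rose by 0.51 ± 0.07 (adjusted p = 0.00419). Of 18 tested BCL2 family genes 8 rose (44.4%) and 3 fell (16.7%), the falls being BCL2, BID and BCL2L1. The calls higher were 3 without the pair of clone 1 and 5 without that of wild type. With upper-quartile scaling 9 were called higher and 1 lower. PMAIP1, which encodes NOXA and was picked after its values were seen, had differences of -0.72, 1.01 and 0.24 in wild type, clone 1 and clone 2. Among 19 tested genes of death receptors and lytic death 3 rose (15.8%) and 5 fell (26.3%), near the shares over all genes tested (17.6% and 21.7%): NINJ1, which acts in plasma membrane rupture, rose by 0.54 ± 0.05 (adjusted p = 0.00207), while RIPK3, the kinase of necroptosis, fell by 0.34 ± 0.04 (adjusted p = 0.00374). Of 24 p53 targets 8 rose (33.3%) and 5 fell (20.8%), against the same 17.6% and 21.7%. BTG2 rose by 0.78 ± 0.06 (adjusted p = 0.00165) and TIGAR fell by 0.67 ± 0.06 (adjusted p = 0.00184). CDKN1A, the inhibitor p21, rose by 0.38 ± 0.09 (adjusted p = 0.0213, and 0.0881 and 0.111 without the pairs of wild type and clone 1).

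Redox genes split within their lists. GSR and TXNRD1, the reductases of glutathione and thioredoxin, fell by 0.62 ± 0.04 and 0.66 ± 0.05 (adjusted p = 0.00127 and 0.00147), while NQO1, a quinone reductase and like them a target of NRF2, rose by 0.68 ± 0.10 (adjusted p = 0.00581). Of 26 tested NRF2 targets 10 fell (38.5%) and 5 rose (19.2%), against 21.7% lower and 17.6% higher over all genes tested. HMOX1, heme oxygenase, was not called (-0.32 ± 0.14, adjusted p = 0.129). ALAS1, the first enzyme of heme synthesis, went from 41.2 to 84.4 FPKM in the wild-type pair, 33.7 to 72.2 in the clone 1 pair and 42.5 to 83.7 in the clone 2 pair, without overlap (1.02 ± 0.04, adjusted p = 0.0009). ACSL4, which loads polyunsaturated fatty acids into lipids and is known for its part in ferroptosis, rose from 81.5, 49.2 and 63.8 to 123, 94.4 and 110 FPKM (0.76 ± 0.07, adjusted p = 0.00174). Of 18 tested genes of ferroptosis and acyl-CoA synthetases 5 rose (27.8%), 2 fell (11.1%), NCOA4 and SLC7A11, and 11 were not called. The line medians were 0.13, -0.01 and -0.04 in wild type, clone 1 and clone 2.

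The magnesium transport genes named here changed less than the targeted phosphatase, and in both directions. SLC41A1, a magnesium exporter, rose from 10.8, 11.3 and 15.9 to 16.8, 17.8 and 22.2 FPKM (0.55 ± 0.05, adjusted p = 0.00174), and NIPAL3 by 0.36 ± 0.05 (adjusted p = 0.00439). MAGT1, known as a magnesium transporter and as a subunit of oligosaccharyltransferase, fell by 0.36 ± 0.05 (adjusted p = 0.00532). Of the PRL-binding CNNM transporters, CNNM3 rose by 0.28 ± 0.05 (adjusted p = 0.00787; 0.0562 without the pair of clone 1), and neither CNNM2, at 0.18 ± 0.09 (adjusted p = 0.156), nor CNNM4, at 0.05 ± 0.06 (adjusted p = 0.589), was called. TRPM7, a magnesium channel, was not called (-0.07 ± 0.05, adjusted p = 0.352). Of 22 tested genes on this list 3 rose (13.6%) and 7 fell (31.8%), PTP4A1 and PTP4A2 included, against 17.6% and 21.7% over all genes tested. The median was -0.05, and 3 fell without the pair of either clone.

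**Figure D4:**
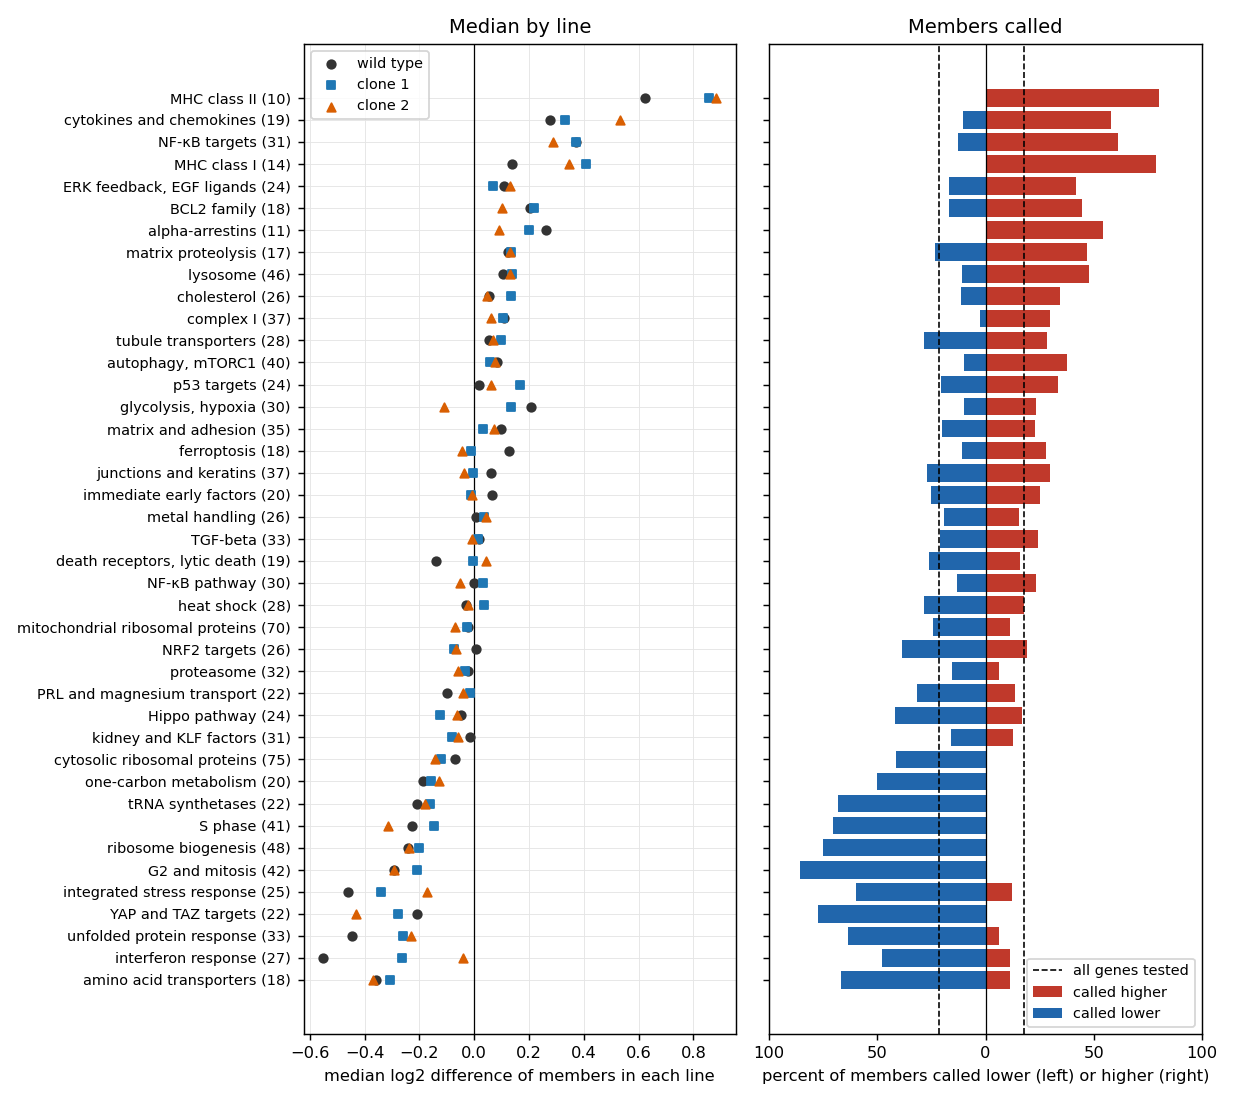
Left, the median log2 difference of the tested members of 41 gene lists in wild type, clone 1 and clone 2 (number tested in brackets). Right, the percent of members called lower (blue) or higher (red), with dashed lines at the shares over all genes tested, 21.7% and 17.6%; MHC class II has the highest median of the 3-line mean and amino acid transporters the lowest.

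Epithelial identity genes stayed abundant. The summed level of 16 epithelial markers was 2584 to 3369 FPKM in the controls and 2899 to 3674 after knockdown. Among these markers 5 rose and 5 fell (31.2% each, against 17.6% and 21.7% over all genes tested). Without the pair of either clone 0 were called lower. The median of the list was -0.06, with line medians of -0.02, -0.09 and -0.05. CDH16, kidney cadherin, rose by 0.82 ± 0.10 (adjusted p = 0.00316), PAX8, a kidney lineage factor, by 0.57 ± 0.05 (adjusted p = 0.00166) and keratin 19, KRT19, by 0.36 ± 0.04 (adjusted p = 0.00341). The falls were in CDH1, KRT18, TJP1, EPCAM and occludin, OCLN. OCLN was at -0.24 ± 0.05 (adjusted p = 0.0132, and 0.0664 and 0.0639 without the pairs of clone 1 and clone 2). Of 13 endothelial markers 1 was tested and not called, and their summed level was 7.27 to 25.2 FPKM in the controls and 7.10 to 24.7 after knockdown. Of 15 fibroblast markers 3 were tested, ACTA2, TAGLN and FBLN1, and FBLN1 was not called. The summed level of the fibroblast list was 21.5 to 29.0 FPKM in the controls and 27.5 to 36.2 after knockdown, higher in each line. ACTA2, smooth muscle actin, rose by 0.74 ± 0.19 (adjusted p = 0.0277; 0.122 and 0.112 without the pairs of clone 1 and clone 2), and TAGLN, transgelin, had differences of -0.01, 1.01 and 0.86 and was not called (adjusted p = 0.0577). The part of such cells in the results was not tested.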

How the data were processed

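RNA was measured in 6 libraries of MDCK cells (TruSeq Stranded mRNA, per the labels' protocols). The deposited FPKM were made by the authors with HISAT2 2.1.0, Cufflinks 2.2.1 and Cuffdiff, per the submitters' processing notes. The build, annotation and strand setting were not given in sources used here; overlapping and antisense genes may share fragments. RefSeq (UU_Cfam_GSD_1.0) served for names and gene order alone; 11873 of 12125 tested genes matched. Promoters were not analysed here.

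Genes averaging 1 FPKM or more over the libraries were fitted as log2(FPKM + 1) with limma 3.58.1 in R 4.3.3, treatment with line as block, an intensity trend and Benjamini-Hochberg adjustment over all 12125 genes (2 residual degrees of freedom, prior 3.58). The block comes from the labels: libraries of a line come from the same cells. The pipeline was tested on simulated data. Relative depth was read from ratios of values below 0.1 FPKM. No libraries held identical values.

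Named genes were the 15 rises and 15 falls with the largest smallest difference over the lines, among named genes with the same sign in all lines and at least 5 FPKM in the higher treatment; 1 of these falls and a few list members are not reported here. In each of 45 lists, up to 4 called members with the largest such difference and a member against the list's direction were eligible, and defining members were named whatever they did. Members and lists were chosen with earlier results of these data known, so list counts are descriptions. Alternatives were a pseudocount of 0.1, a minimum of 5 FPKM, no filter, no block, no trend, upper-quartile scaling and each pair left out.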

Additional observations from a re-analysis of the deposited data

Results flagged for a closer look

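For 6 genes named above, none of them called, the log2 difference in the wild-type pair had the opposite sign to both clones, and the difference between wild type and clones was not tested. PMAIP1, which encodes NOXA, had -0.72 in wild type against 1.01 in clone 1 and 0.24 in clone 2. HMOX1 had 0.11 against -0.67 and -0.40. TAGLN had -0.011, from levels of 0.101 and 0.0930 FPKM in wild type, against 1.01 and 0.86. The other 3 were small in every line: CNNM4 had 0.21 against -0.05 and -0.02, RELA had 0.0946 against -0.0589 and -0.0634, and YAP1 had 0.0358 against -0.14 and -0.21.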

How the results depend on the processing

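The count of called genes depended on the block and the filter, and its direction split on scaling. Without the block on line, that is without the pairing, 416 genes were called (150 higher, 266 lower), and with no filter on low values 1179 (451 higher, 728 lower). Leaving out 1 pair gave 1709 to 4037 calls, 749 to 1739 higher and 960 to 2298 lower; the lowest counts, 749 and 960, came without clone 1, and without clone 2 there were 1103 and 1318 of 2421. PTP4A1 ranged from -0.89 to -0.78 with a pair left out. With a pseudocount of 0.1, 179 genes were 1.5-fold higher in all lines, and 45 were 2-fold higher and 19 lower. All 29 genes named first kept direction and call under the other pseudocount, filter at 5 FPKM, trend and scaling and without any pair. Their ranking over the same lines favours the result without any pair. With no filter 11 lost the call (adjusted p 0.0504 to 0.111), and without the block 13 did (0.0507 to 0.263). Of 229 genes considered, 32, 12 and 3 lost their call without clone 1, clone 2 and wild type. Uncalled genes changed sign: CD14 to -0.00668 without wild type and -0.0107 without clone 1, CNNM4 to -0.0347 without wild type, FLT1 to 0.0242 with upper-quartile scaling and 0.00422 without wild type, ATF3 to 0.0274 and PMAIP1 to -0.24 without clone 1, and RELA to 0.0254 with upper-quartile scaling, 0.0156 without clone 1 and 0.0178 without clone 2. With a pair left out 1 residual degree of freedom remains; other causes were not tested. With 3 pairs and unknown depth, changes in genes near 1 FPKM are the least certain.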

Other observations

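Several further groups held members that changed in either direction. Heat shock genes moved both ways: HSPB1, the small heat shock protein HSP27, rose from 11.5, 17.9 and 50.6 FPKM in the controls of wild type, clone 1 and clone 2 to 28.3, 40.9 and 74.1 (0.98 ± 0.13 log2 units, SE, n = 3 lines, limma adjusted p = 0.00486). HSP90AA1, a cytosolic HSP90, fell from 208, 252 and 268 to 137, 183 and 190 FPKM (-0.52 ± 0.04, adjusted p = 0.00156), and of 28 tested members 5 rose (17.9%) and 8 fell (28.6%), near the 17.6% and 21.7% over all genes tested (1 and 4 members without the pair of either clone). Their median changed sign with upper-quartile scaling, from -0.02 to 0.02. Of 26 cholesterol synthesis and uptake genes, 9 rose (34.6%) and 3 fell (11.5%), with a median of 0.11 and line medians of 0.05, 0.13 and 0.05. The shares over all genes tested were 17.6% and 21.7%, and 3 were called higher without the pair of either clone. MVD, an enzyme of the mevalonate pathway, rose by 0.48 ± 0.03 (adjusted p = 0.00133). Among the falls were the sterol oxidase MSMO1 by 0.52 ± 0.06 (adjusted p = 0.00295) and INSIG1, which retains the sterol sensor in the ER, by 0.46 ± 0.07 (adjusted p = 0.00759).

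Single solute and matrix genes also changed. SLC6A12, the betaine transporter that kidney cells use against osmotic stress, was low and rose from 0.468, 0.6999 and 0.472 to 1.54, 3.35 and 1.5 FPKM (0.97 ± 0.14, adjusted p = 0.0051), while SLC5A3, the carrier of myo-inositol, another osmolyte, fell from 7.59, 15.3 and 11.5 to 5.06, 7.50 and 5.36 (-0.80 ± 0.10, adjusted p = 0.00375). Carbonic anhydrase 2, CA2, fell from 2974, 2376 and 2111 to 2143, 1608 and 1559 FPKM (-0.49 ± 0.04, adjusted p = 0.00161). Of 28 tubule transporters 8 rose and 8 fell (28.6% each, against 17.6% and 21.7% over all genes tested), and 2 and 4 without the pair of clone 1. Among 35 matrix and adhesion genes, 8 rose (22.9%) and 7 fell (20%), near the shares over all genes tested (3 and 2 members without that pair): the laminin chain LAMC1 rose by 0.45 ± 0.03 (adjusted p = 0.00156). COL5A2, a chain of collagen V, fell from 577, 770 and 596 to 413, 473 and 371 FPKM (-0.62 ± 0.05, adjusted p = 0.00165).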
